A study of Oryza sativa Japonica Group and Oryza sativa Indica Group with 16 samples.

Results

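Heat shock proteins (HSPs) and the heat stress transcription factors (HSFs) of rice were followed in flag leaves under progressive drought. The members were all probe sets assigned to a single gene whose symbol or synonym begins, once the species prefix Os is dropped, with HSP and a number, with HSFA, HSFB or HSFC, or with HSF and a number. This rule found 64 of the 57381 probe sets on the Affymetrix rice array, and these belonged to 43 gene entries. Small HSPs, with a mass under 30 kDa in the name, gave 26 probe sets of 19 genes, large HSPs gave 9 probe sets of 4 genes, and the factors gave 29 probe sets of 20 genes. A further 6 HSP or HSF entries of RefSeq (HSP16.9C, HSP18.9, HSP19.0, HSFA6A, HSFB4C and HSFC2B) had no probe set under the rule.

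The arrays compared IRAT109, an upland japonica cultivar that resists drought, with Zhenshan 97 (ZS97), a paddy indica cultivar that is sensitive to it. Plants stood in PVC pipes and met their first drought at the reproductive stage before flowering, and the middle of the flag leaf blade was sampled at 4 stages of leaf relative water content: D0, before drought (94 to 95%), D1 (83 to 88%), D2 (74 to 78%) and D3 (65 to 69%). Each of the 8 groups of genotype and stage held 2 arrays, which the labels call biological replicates. No watered group was sampled beside D1 to D3, so an effect of drought cannot be told apart from leaf age or time of sampling. A drought change below means a change against D0. Whether the probes match both cultivars' sequences equally was not tested, so a genotype difference in signal cannot be told apart from a difference in probe match.

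In plants as in other organisms, small HSPs bind unfolding proteins and keep them from aggregating, HSP101 (a ClpB-type chaperone) pulls aggregates apart, and the HSP81 proteins, which are cytosolic members of the HSP90 family, hold client proteins such as kinases and receptors in a form ready to act. Transcription of these genes is driven by HSFs, which bind heat shock elements in promoters. Class A factors carry activation motifs, whereas class B and class C factors lack them, and many class B factors act as repressors. Several members of all these groups are known to answer not only to heat but also to drought, salt and abscisic acid.

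Arrays were even in overall level, which says little of RNA quality, since the deposited values may already have been scaled between arrays. The trimmed mean intensity ran from 228.2 to 245.9, replicate arrays correlated at 0.9971 to 0.9983 over all probe sets, and 27.9 to 29.5% of probe sets lay under an intensity of 16. Leaf identity was plain at D0, where 13 probe sets of flag leaf markers (rbcS, RBCS1, rca, CAB2R, PPDK2 and PPDKB) summed to 71207 to 78188 per array. Over all 16 arrays, 7 seed markers summed to 146 to 178 and 2 root markers to 121 to 418. The 4 spikelet and panicle markers summed to 76.3 to 477, and 1 anther marker read 21.3 to 31.2. The leaf marker sum was lower at D3, at 28589 to 36293, so it moved with drought in the same direction as the members that fell; its part in any result below was not tested. In bulk leaf RNA, fewer cells of a type and less RNA per cell cannot be told apart.

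Changes are given as differences of mean log2(intensity + 16) with the standard error from limma (SE, 2 arrays a group). A member is called upregulated or downregulated when its adjusted p was under 0.05 over all 57381 probe sets and the change was over 2-fold, that is over 1 on the log2 scale. The comparisons of D1, D2 and D3 with D0 share the D0 arrays of their genotype, so they do not support one another.

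Members changed against D0 in both directions. In IRAT109, 14 of 64 members were upregulated at 1 or more stages against D0 (4.22% of all probe sets) and 15 were downregulated (5.4% of all); in ZS97 the numbers were 15 upregulated (4.7% of all) and 15 downregulated (4.61% of all). No member rose at one stage and fell at another within a genotype, and 13 members rose (2.68% of all) and 11 fell (3.28% of all) in both genotypes. None was called in opposite directions (0.145% of all), and 29 were called in neither. A moderated F-test over D0 to D3 (adjusted p under 0.01) found 47 of 64 members varying in IRAT109 and 47 in ZS97, against 30.5% and 29.3% of all probe sets. Across the 64 probe sets, the mean changes of D1 to D3 in the 2 genotypes had a Pearson correlation of 0.84 and a Spearman correlation of 0.82; probe sets of 1 gene are among the points, and genes are not independent replicates.

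**Figure D1:**
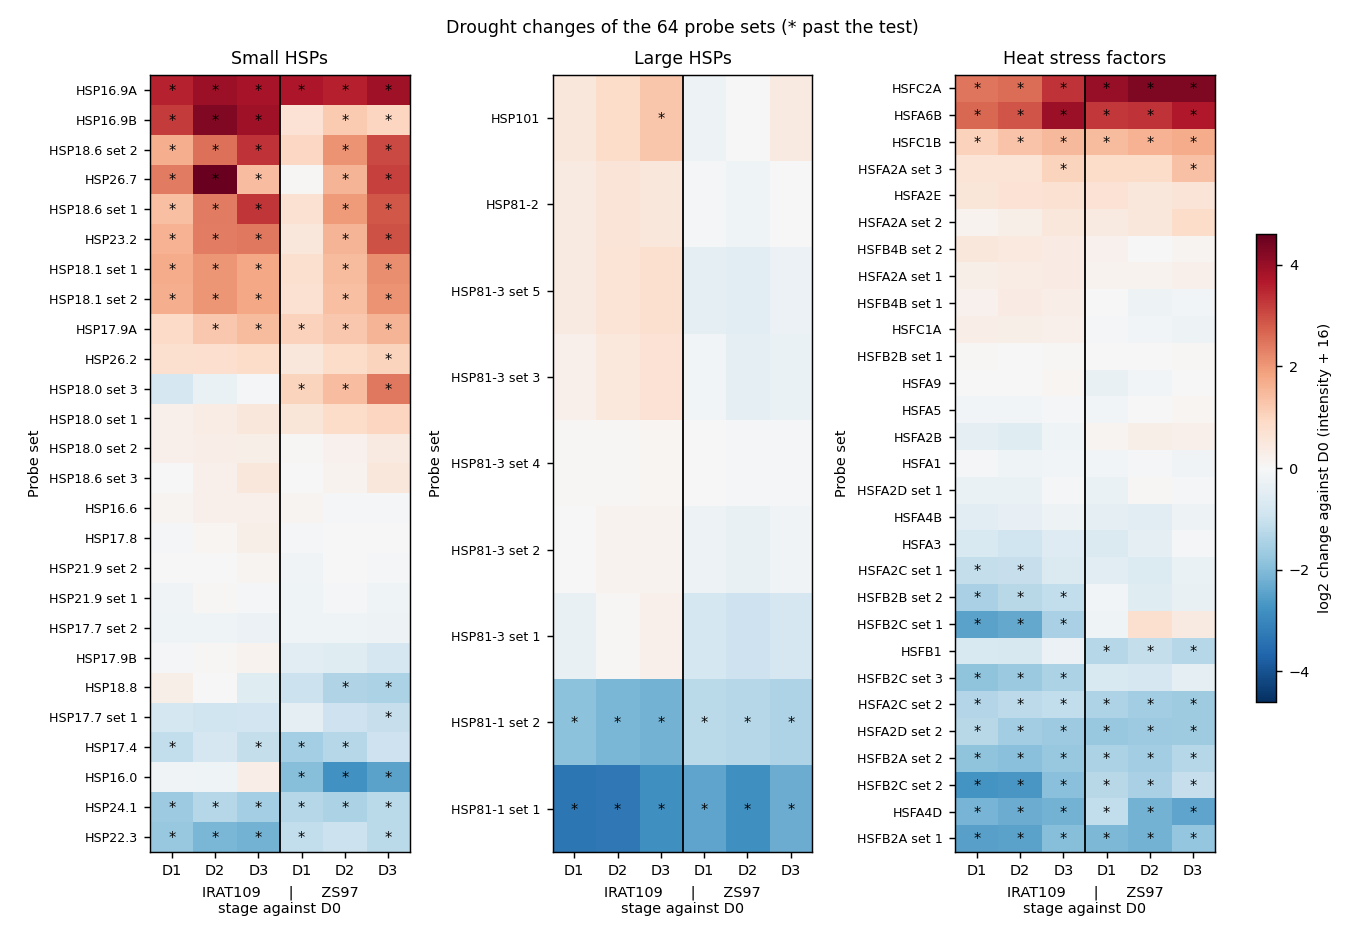
Log2 change in intensity against D0 for each of the 64 probe sets (rows, ordered by mean change within each class) at D1, D2 and D3 (columns) in IRAT109 (left of the line) and ZS97 (right); red is higher and blue lower than D0, and an asterisk marks a change called by the test. Small HSPs have 9 upregulated probe sets in IRAT109 and 11 in ZS97, whereas the factors have 4 upregulated in each genotype and 10 and 7 downregulated.

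By class, the calls were as follows, with several probe sets of 1 gene counted separately and no test between classes. Of the 26 small HSP probe sets, IRAT109 had 9 upregulated and 3 downregulated, and ZS97 had 11 and 6. Of the 9 large HSP probe sets, 1 was upregulated and 2 were downregulated in IRAT109, and 0 and 2 in ZS97. Of the 29 factor probe sets, 4 were upregulated in each genotype, and 10 were downregulated in IRAT109 and 7 in ZS97. The median mean change over D1 to D3 was 0.22 in IRAT109 and 0.23 in ZS97 for small HSPs, 0.12 and -0.29 for large HSPs, and -0.24 and -0.12 for factors, beside 0.01 and -0.01 over all probe sets. The small HSP median in ZS97 was -0.01 when 1 probe set was kept for each gene. Split by stage, D1 had 11 upregulated members in IRAT109 (2.87% of all) and 6 in ZS97 (2.47% of all). By D3 there were 14 in IRAT109 (3.42% of all) and 15 in ZS97 (4.23% of all).

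Averaged over D1 to D3, HSP16.9B and HSP16.9A had the highest changes of the small HSPs in IRAT109. Both are class I small HSPs of the cytosol, and their genes lie next to each other on chromosome 1, in a run with HSP16.6 and HSP17.9B. HSP16.9A in IRAT109 read 342.9 and 380.9 at D0, 4405.3 and 4256.4 at D1, 5777.4 and 5879.5 at D2, and 5348.3 and 4981.6 at D3. The ZS97 arrays read 101.6 and 122.4 at D0, 1777.6 and 1565.4 at D1, 1557.9 and 1464.5 at D2, and 1883.2 and 1862.8 at D3. Within each genotype, all arrays under drought lay above both D0 arrays, and most of the rise was in place at D1. The mean change was 3.75 ± 0.07 in IRAT109 (adjusted p = 2.42e-13) and 3.73 ± 0.07 in ZS97 (adjusted p = 2.49e-13), and the genotypes' changes differed by 0.02 ± 0.10 (adjusted p = 0.918).

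HSP16.9B gave another picture. In IRAT109 it read 87.8 and 84.3 at D0, 946.8 and 932.2 at D1, 1878.3 and 1984.5 at D2, and 1587.8 and 1404.7 at D3. ZS97 arrays read 13.9 and 13.1 at D0, below the added constant of 16, then 37.5 and 24.8 at D1, 55.1 and 50.1 at D2, and 39.4 and 47.0 at D3. Every IRAT109 array, unstressed ones included, thus lay above every ZS97 array. On average it changed by 3.79 ± 0.09 in IRAT109 and 0.96 ± 0.09 in ZS97, a difference of 2.83 ± 0.12 (adjusted p = 7.62e-09). In ZS97, HSP16.9B was called at D2 (1.22) and at D3 (1.002), and the D3 call was lost without D0 replicate 2 (0.98) or without D3 replicate 2 (0.91). The RefSeq entry of HSP16.9A also lists HSP16.9B as a synonym, so the assignment of the probe sets to these neighbouring copies is uncertain. The other 2 genes of the run were not called against D0: HSP16.6 stayed between 29.0 and 43.0 on the 16 arrays, and HSP17.9B between 1165.8 and 2703.4.

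**Figure D2:**
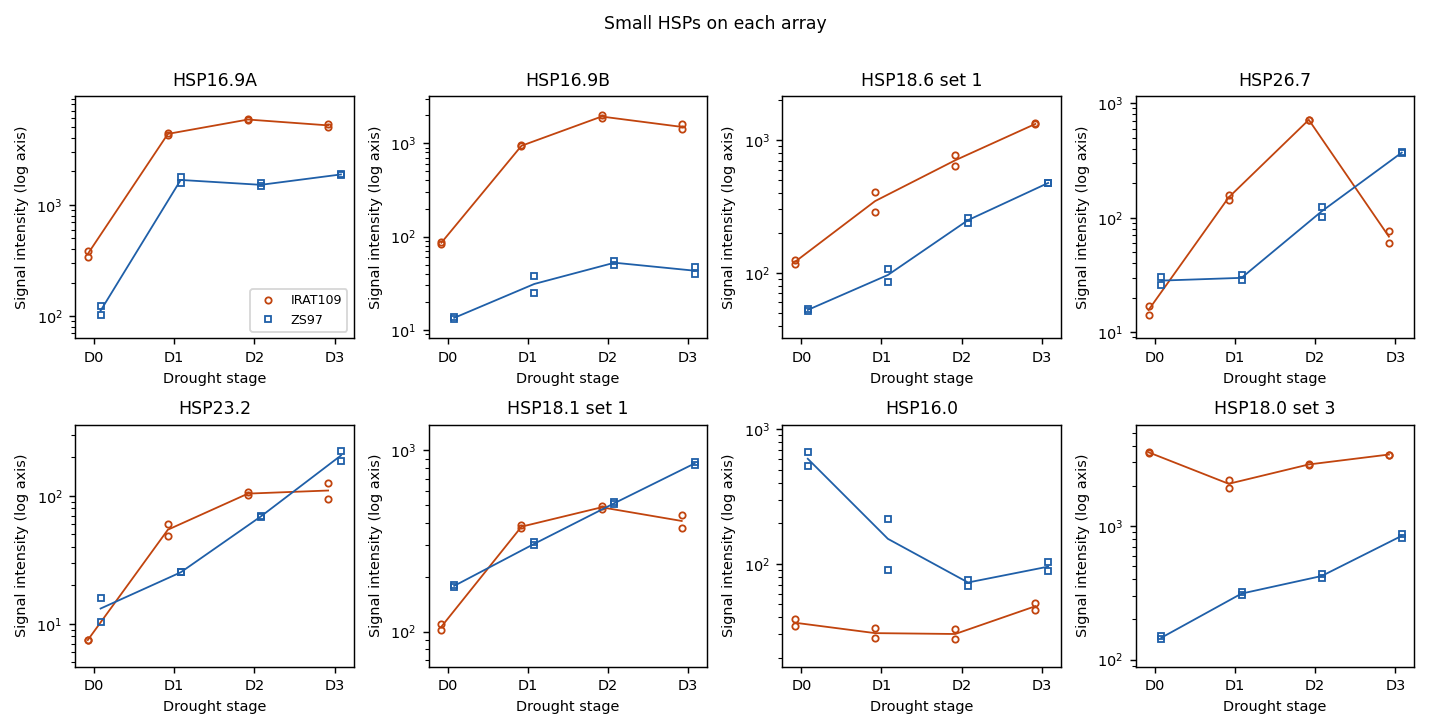
Signal intensity (log axis) of 8 small HSP probe sets at D0 to D3; circles are the IRAT109 arrays and squares the ZS97 arrays (2 each), and lines join the group means. HSP26.7 in IRAT109 is at 717.8 and 715.8 at D2 and at 60.4 and 76.3 at D3, while in ZS97 it is highest at D3.

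HSP26.7, a small HSP of the chloroplast, had the sharpest turn between stages. IRAT109 arrays read 14.2 and 17.1 at D0, 157.5 and 143.5 at D1, 717.8 and 715.8 at D2, and then 60.4 and 76.3 at D3. The ZS97 arrays read 30.4 and 26.1 at D0, 28.4 and 31.3 at D1, 125.0 and 102.4 at D2, and 374.1 and 367.1 at D3. Its level thus peaked at D2 in IRAT109 but was still rising at D3 in ZS97. From D2 to D3 it fell by 3.13 ± 0.10 in IRAT109 (adjusted p = 5.53e-09) and rose by 1.58 ± 0.10 in ZS97 (adjusted p = 3.06e-06), and the difference between these steps was -4.71 ± 0.14 (adjusted p = 7.21e-09). Relative to D0, the change in IRAT109 exceeded that in ZS97 by 2.99 at D2 and lay 1.72 below it at D3, a log2 difference of -1.72.

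HSP23.2, a small HSP of the endoplasmic reticulum, and HSP18.1, of class I, rose in both genotypes, with IRAT109 behind ZS97 at D3. HSP23.2 read 7.4 and 7.5 at D0, 59.9 and 49.0 at D1, 107.4 and 101.3 at D2, and 94.8 and 125.8 at D3 in IRAT109. Readings in ZS97 were 10.3 and 16, 25.3 and 25.2, 70.3 and 67.9, and 225.5 and 189.3 at the same stages. IRAT109 was thus ahead at D1 and D2 and behind at D3, without overlap at these stages. HSP23.2 rose by 1.04 ± 0.12 from D1 to D2 and by 1.39 ± 0.12 from D2 to D3 in ZS97, and the D2 to D3 step of IRAT109 was 1.33 below that of ZS97 (a difference of -1.33 ± 0.17, adjusted p = 0.000618). The excess of IRAT109 in the D1 change (1.07) dropped under the 2-fold limit without IRAT109 D1 replicate 1 (0.96) or ZS97 D0 replicate 2 (0.93). With D0 arrays at or below the added constant, the size of these changes depends on it: with a constant of 64 that excess was 0.52 and the step difference -0.98, both uncalled, while the ratio of mean intensities at D1 to D0 was 7.31 in IRAT109 and 1.92 in ZS97.

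HSP18.1 (probe set 1) read 110.2 and 102.6 at D0, 386.1 and 373.2 at D1, 493.4 and 477.8 at D2, and 375.3 and 441.0 at D3 in IRAT109, against 176.3 and 181.3, 299.8 and 311.0, 504.0 and 519.8, and 828.4 and 866.9 in ZS97. The second probe set followed it, with mean changes of 1.84 in IRAT109 and 1.39 in ZS97 beside 1.84 and 1.44. The group mean was highest at D2 in IRAT109 and at D3 in ZS97. None of the interactions of HSP18.1 at single stages was called; they ran from -0.36 to 0.97.

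HSP18.6, a class III small HSP, climbed at every stage in both genotypes. Its probe set 1 read 124.5 and 117.1 at D0, 405.4 and 288.7 at D1, 639.5 and 770.2 at D2, and 1313.3 and 1336.3 at D3 in IRAT109. The ZS97 arrays read 53.5 and 51.4, 107.0 and 85.4, 260.9 and 237.8, and 477.5 and 473.1. No stage overlapped with the next in either genotype. The D3 change was 3.29 in IRAT109 and 2.84 in ZS97, and probe set 2, which may also match other transcripts, gave 3.32 and 3.04. Probe set 3, at 12.2 to 33.2 on all arrays, was not called. The step from D1 to D2 was called in ZS97 (1.25 ± 0.13) and, just past 2-fold, in IRAT109, but the latter rested on single arrays: it was 0.77 without D1 replicate 2 and 0.87 without D2 replicate 2.

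HSP17.9A, a class I small HSP, was bright throughout. It read 2731.2 and 2949.5 at D0 and 7361.4 and 8340.8 at D3 in IRAT109, and 1651.6 and 1639.2 at D0 and 4792.3 and 4903.4 at D3 in ZS97. The mean change was 1.19 ± 0.06 in IRAT109 and 1.29 ± 0.06 in ZS97. HSP26.2, a mitochondrial small HSP, was called only at D3 in ZS97 among its 6 comparisons with D0 (1.01, and 0.91 without D0 replicate 2 and 0.55 with a constant of 64; rank products did not call it); its D0 arrays read 27.2 and 21.8 there, and its D3 arrays 65.1 and 65.6.

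Over the small HSPs called upregulated, the highest group mean fell at D2 for 5 and at D3 for 4 of the 9 probe sets in IRAT109. In ZS97 it fell at D2 for 1 and at D3 for 10 of the 11. Of the 5 in IRAT109, only HSP26.7 had a called fall from D2 to D3. HSP16.9A and HSP16.9B changed by -0.17 and -0.37 in that step, and both probe sets of HSP18.1 by -0.25. In ZS97, only HSP23.2 and HSP26.7 had a called rise from D2 to D3. Over all probe sets upregulated at 1 or more stages, the highest mean fell at D2 for 21.6% and at D3 for 58.5% in IRAT109, and for 21.1% and 65.4% in ZS97. Small HSP probe sets upregulated at all 3 drought stages numbered 8 of 26 in IRAT109 (2.15% of all probe sets) and 3 of 26 in ZS97 (2.13% of all). These counts describe the called probe sets, some of which share a gene; the difference in timing itself was tested only through the interactions of single members.

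A smaller set of small HSPs went down. HSP22.3, of class VI, read 198.9 and 186.7 at D0, 54.8 and 38.2 at D1, 36.0 and 30.2 at D2, and 27.7 and 33.6 at D3 in IRAT109. Readings in ZS97 were 128.5 and 140.1, 57.9 and 46.8, 61.4 and 59.6, and 48.9 and 45.0. The fall was larger in IRAT109 at D2 (a difference of -1.12 ± 0.17), where its 2 arrays lay below both of ZS97. HSP24.1, a mitochondrial small HSP, read 1048.5 and 1177.6 at D0 and 311.1 to 443.4 under drought in IRAT109, and 640.2 and 647.1 at D0 and 221.8 to 278.2 under drought in ZS97, with mean changes of -1.51 ± 0.09 and -1.33 ± 0.09.

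On chromosome 3, HSP17.4, HSP18.1 and HSP17.7 follow each other directly, with HSP17.9A 4 gene entries away. All are class I small HSPs, and they did not move together: HSP17.9A and HSP18.1 rose, as given above, whereas HSP17.4 fell. HSP17.4 read 410.0 and 437.1 at D0 and 175.5 to 251.6 under drought in IRAT109, and 432.8 and 450.9 at D0 and 115.7 to 226.9 under drought in ZS97. It was called at D1 and D3 in IRAT109 (-1.12 and -1.10) and at D1 and D2 in ZS97 (-1.58 and -1.32). HSP17.7 (probe set 1) had mean changes of -0.87 and -0.81 and was called only at D3 of ZS97 (-1.05, but -0.93 with a constant of 64, and not by rank products); its probe set 2 lay under an intensity of 16 on all 16 arrays.

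For 2 further small HSPs the fall in ZS97, averaged over D1 to D3, exceeded the mean change in IRAT109 by the test of the difference itself. HSP16.0, a peroxisomal small HSP, read 531.4 and 674.4 at D0 in ZS97, then 216.2 and 90.4 at D1, 68.9 and 76.4 at D2, and 88.2 and 102.3 at D3. In IRAT109 it stayed between 27.6 and 51.1 on the 8 arrays, too low for a fall as large as that of ZS97 to register. All ZS97 arrays lay above all IRAT109 arrays, with the widest gap at D0, where the log2 difference was -3.55 ± 0.25. The mean change was -2.41 ± 0.21 in ZS97 and -0.02 ± 0.21 in IRAT109, a difference of 2.39 ± 0.29 (adjusted p = 5.91e-05); the ZS97 arrays at D1 differed from each other by more than at the other stages. HSP18.8, of class V, read 2600.9 and 2690.3 at D0 and 894.6 to 1370.8 under drought in ZS97. In IRAT109 it read 2307.1 and 2469.1 at D0, 2959.6 and 2776.3 at D1, 2364.4 and 2318.2 at D2, and 1501.9 and 1728.0 at D3. Its mean changes of -1.28 in ZS97 and -0.11 in IRAT109 differed by 1.17 ± 0.12 (adjusted p = 1.12e-05). By stage, the difference was called at D1 (1.26) and D2 (1.34) but not at D3, where IRAT109 also lay below D0.

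The probe sets of HSP18.0, a class II small HSP, contradicted one another. Probe set 3 read 3547.1 and 3583.8 at D0 and 1942.9 to 3431.6 under drought in IRAT109, but 141.8 and 149.7 at D0 in ZS97, rising to 318.0 and 305.6 at D1, 438.9 and 405.5 at D2 and 877.2 and 811.8 at D3. Probe set 1 read 276.7 to 414.4 in IRAT109 and 23.3 to 68.6 in ZS97. Probe set 2, which may match other transcripts, read 270.7 to 366.5 in IRAT109 and 248.8 to 370.8 in ZS97, with full overlap. At D0 the genotype difference was thus 4.47 ± 0.07, 2.85 ± 0.09 and 0.03 by probe sets 3, 1 and 2. Probe set 1 rose in ZS97 by 0.57, 0.86 and 0.986 at D1, D2 and D3, under the 2-fold limit. Only probe set 3 gave a called drought change, in ZS97 (1.02, 1.44 and 2.41 at D1, D2 and D3; the first fell to 0.98 without D0 replicate 1 and to 0.99 without D1 replicate 1), and it gave a called interaction at all 3 stages, of -1.80, -1.74 and -2.47.

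The remaining small HSPs, HSP17.8 and HSP21.9 (2 probe sets), ranged from 18.6 to 55.2 over all arrays and were not called in any comparison with D0.

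Of the 4 large HSP genes, HSP81-1 was called at every stage in both genotypes and HSP101 at 1 stage of IRAT109. HSP81-1 (probe set 1) read 8663.5 and 8311.3 at D0 in IRAT109 and 841.3 and 811.0 at D1, 875.9 and 833.9 at D2, and 1179.0 and 1177.4 at D3. The ZS97 arrays read 5366.0 and 6029.8 at D0, 1069.9 and 1012.1 at D1, 800.5 and 779.5 at D2, and 1162.2 and 1169.5 at D3. In both genotypes all drought arrays thus lay far below those of D0, and both D3 arrays lay above those of D2, by 0.46 and 0.55, under the 2-fold limit. The mean change was -3.15 ± 0.05 in IRAT109 (adjusted p = 7.62e-14) and -2.51 ± 0.05 in ZS97 (adjusted p = 4.8e-13). Probe set 2 read 445.1 and 411.7 at D0 and 75.8 to 117.6 under drought in IRAT109, and 176.3 and 167.4 and then 54.3 to 67.6 in ZS97. It gave falls of -2.06 and -1.32, with a genotype difference at D0 of 1.24 ± 0.10 that probe set 1 did not share at a called size (0.58).

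**Figure D3:**
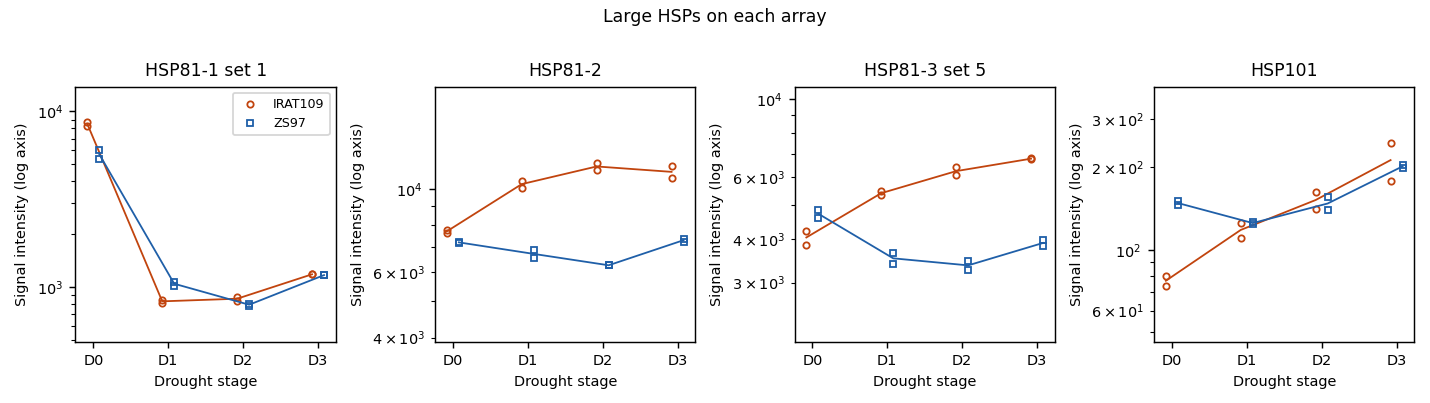
Signal intensity (log axis) of 4 large HSP probe sets at D0 to D3; circles are the IRAT109 arrays and squares the ZS97 arrays (2 each), and lines join the group means. HSP81-1 drops from 5366.0 or more at D0 to 1179.0 or less under drought on every array, while HSP81-2 stays at 6244.9 or more throughout.

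Its relatives HSP81-2 and HSP81-3, which lie on chromosome 9 with 2 gene entries between them, kept high signal. HSP81-2 read 7774.0 and 7639.2 at D0 and 10094.5 to 11772.1 under drought in IRAT109, and 7174.2 and 7225.6 at D0 and 6244.9 to 7361.6 under drought in ZS97. In IRAT109 all drought arrays thus lay above those of D0, by changes of 0.42 to 0.58 that stayed under the 2-fold limit. HSP81-3 (probe set 5, which may match other transcripts) read 4219.6 and 3853.7 at D0, 5326.4 and 5473.4 at D1, 6065.3 and 6417.1 at D2, and 6795.2 and 6750.4 at D3 in IRAT109. In ZS97 the same probe set read 4600.6 and 4833.4 at D0 and 3260.1 to 3972.7 under drought. Up in one genotype and down in the other, neither past 2-fold, its changes differed by 1.12 ± 0.09 at D2 and 1.02 ± 0.09 at D3. Probe set 1 differed by 1.03 and 1.01 at these stages and the other 3 probe sets by 0.16 to 0.95, uncalled.

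These HSP81-3 interactions lay so near the limit that single arrays moved them under it. That of probe set 1 at D2 was 0.99 without IRAT109 D2 replicate 1 and 0.98 without ZS97 D0 replicate 2, and at D3 it was 0.99 without IRAT109 D3 replicate 1 or ZS97 D3 replicate 1 and 0.96 without ZS97 D0 replicate 2. That of probe set 5 at D3 was 0.96 without IRAT109 D0 replicate 2, 0.99 without ZS97 D0 replicate 2 and 0.99 without ZS97 D3 replicate 1.

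HSP101 read 80.2 and 74.1 at D0, 125.7 and 110.7 at D1, 162.7 and 141.2 at D2, and 178.8 and 246.0 at D3 in IRAT109. ZS97 arrays began higher, at 151.2 and 145.1, and went on at 125.9 and 124.5, 155.6 and 139.5, and 198.8 and 204.3. From D1 on the genotypes were within 0.08 of each other on the log2 scale. Only the D3 change of IRAT109 was called (1.28), and the difference in mean change, 0.82 ± 0.13 (adjusted p = 0.000553), stayed under 2-fold.

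Among the factors, 3 genes rose strongly in both genotypes. HSFA6B, a class A factor, read 49.3 and 54.2 at D0, 393.9 and 412.4 at D1, 473.9 and 489.8 at D2, and 975.8 and 1089.1 at D3 in IRAT109. Those of ZS97 read 39.8 and 42.3, 547.9 and 506.5, 568.5 and 551.4, and 703.3 and 723.3. ZS97 was thus the higher at D1 and D2 and IRAT109 at D3, with no overlap, though none of these differences passed 2-fold. Averaged over the stages, its change was 3.15 ± 0.05 in IRAT109 and 3.42 ± 0.05 in ZS97. From D2 to D3 it rose by 1.07 ± 0.07 in IRAT109 (0.995 without D3 replicate 2).

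HSFC2A, a class C factor, answered more in ZS97. The IRAT109 arrays read 42.5 and 23.9 at D0, 256.2 and 249.5 at D1, 259.0 and 278.2 at D2, and 441.2 and 486.5 at D3. Those of ZS97 read 36.3 and 35.4, 829.2 and 815.5, 1060.5 and 949.2, and 971.7 and 1033.4. At D0 the genotypes overlapped, and at every drought stage both ZS97 arrays lay above both IRAT109 arrays. Its mean change was 2.78 ± 0.11 in IRAT109 and 4.20 ± 0.11 in ZS97, a difference of -1.42 ± 0.15 (adjusted p = 1.82e-05). By stage, the difference in change was called at D1 (-1.54) and D2 (-1.74) but not at D3.

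HSFC1B, whose loss is known to make rice more sensitive to salt, read 2072.0 and 2309.2 at D0 and 4396.6 to 6525.1 under drought in IRAT109. For ZS97 the values were 1526.1 and 1583.6 at D0 and 4071.4 to 5167.0 under drought. The mean changes were 1.28 ± 0.07 and 1.59 ± 0.07, and the D1 change of IRAT109 (1.07) was 0.995 without D0 replicate 1. HSFA2A was called through probe set 3 alone, which may match other transcripts: it read 40.0 and 21.2 at D0 and 77.4 and 76.1 at D3 in IRAT109, and 37.0 and 36.7 at D0 and 122.9 and 112.3 at D3 in ZS97. The D3 change was 1.02 in IRAT109, where it was 0.73 without D0 replicate 2, and 1.34 in ZS97. Its mean change in ZS97 (1.01) no longer passed 2-fold without D1 replicate 2 and was 0.98 without D2 replicate 1 and 0.99 without D3 replicate 1. HSFA2E rose on all drought arrays of both genotypes without passing 2-fold, from 635.7 to 688.8 at D0 to 920.0 to 1165.4 under drought.

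**Figure D4:**
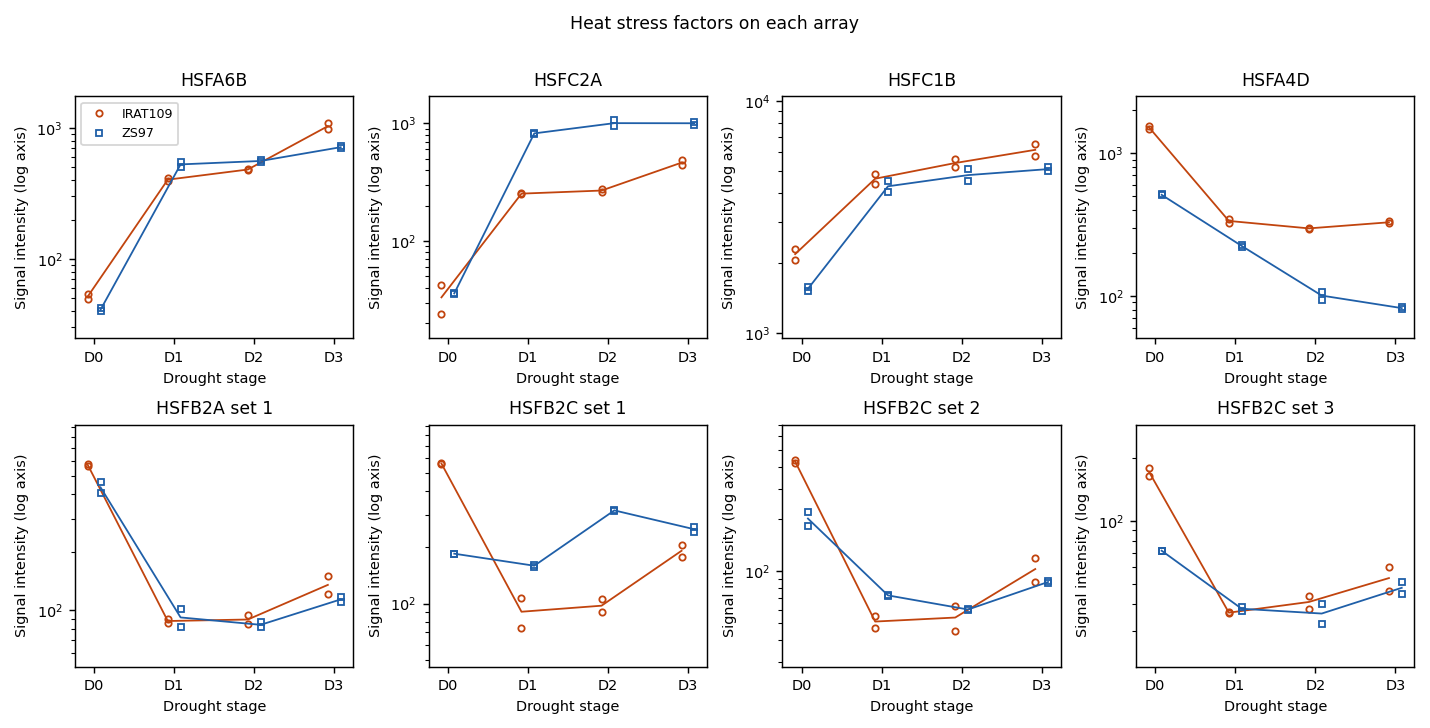
Signal intensity (log axis) of 8 probe sets of heat stress factors at D0 to D3; circles are the IRAT109 arrays and squares the ZS97 arrays (2 each), and lines join the group means. HSFC2A under drought is at 249.5 to 486.5 in IRAT109 and at 815.5 to 1060.5 in ZS97, and the 3 probe sets of HSFB2C fall in IRAT109 but part ways in ZS97.

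More factor probe sets fell than rose. Over all probe sets, 5.4% fell and 4.22% rose at 1 or more stages in IRAT109, and 4.61% and 4.7% in ZS97. Of the 10 class B probe sets (5 genes), 6 were downregulated in IRAT109 and 4 in ZS97, from 3 genes in each; of the 16 class A probe sets (12 genes), 4 and 3 were. HSFB2A (probe set 1) read 576.1 and 564.3 at D0 and 84.8 to 149.9 under drought in IRAT109, and 408.1 and 463.3 at D0 and 81.6 to 117.2 under drought in ZS97. The mean changes were -2.31 ± 0.08 and -2.01 ± 0.08, and probe set 2 gave -1.84 and -1.45. In both genotypes the fall was in place by D1. HSFB1 read 393.8 and 410.8 at D0 and 223.2 to 368.6 under drought in IRAT109, and 332.9 and 323.8 and then 113.4 to 158.5 in ZS97. It was called in ZS97 at each stage (-1.31, -1.10 and -1.31) and at none in IRAT109, with a called interaction at D3 of 1.05 ± 0.15; this was 0.90 without IRAT109 D3 replicate 2 and 0.95 without ZS97 D3 replicate 2, and the D2 change in ZS97 was -0.98 without D2 replicate 2.

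HSFB2B, which is known in rice to lower drought and salt tolerance when overexpressed, fell in IRAT109. Its probe set 2 read 162.7 and 168.5 at D0 and 45.2 to 78.3 under drought in IRAT109, and 110.9 and 122.5 at D0, 107.6 and 103.6 at D1, and 74.2 to 92.6 at D2 and D3 in ZS97. The mean change was -1.30 ± 0.09 in IRAT109 and -0.34 ± 0.09 in ZS97. Only at D1 was the interaction called (-1.38). The D3 change in IRAT109 (-1.13) was -0.95 without D3 replicate 1, and probe set 1 lay between 16.7 and 24.8 and was not called.

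For HSFB2C the 3 probe sets shared the fall in IRAT109 and disagreed in ZS97. In IRAT109, probe set 1 read 568.9 and 558.4 at D0, 107.3 and 73.5 at D1, 105.2 and 89.6 at D2, and 177.2 and 206.7 at D3. In ZS97 it read 185.5 and 184.8, 161.8 and 157.3, 316.8 and 315.3, and 258.5 and 242.2, so that it was above D0 at D2 and D3. Probe set 2 read 437.8 and 422.1 at D0 and 45.1 to 119.0 under drought in IRAT109, and 183.1 and 219.6 and then 59.7 to 88.1 in ZS97. The mean changes in IRAT109 were -2.10, -2.44 and -1.67 by probe sets 1, 2 and 3, and those in ZS97 were 0.31, -1.29 and -0.64. The interaction of the mean change was called for all 3, at -2.41 ± 0.14, -1.15 ± 0.15 and -1.02 ± 0.11, and probe set 1 also differed in its step from D2 to D3 (1.19 ± 0.17). The value of probe set 3 lay at the limit: it was -0.97, -0.999 and -0.98 without replicate 1 of IRAT109 D0, D2 and D3, -0.99 without ZS97 D2 replicate 1, and just under the limit without ZS97 D3 replicate 2. At D0, all 3 probe sets read higher in IRAT109, by 1.53, 1.04 and 1.09; that of probe set 2 was 0.92 without ZS97 D0 replicate 1.

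Of the class A factors, HSFA4D, known as the gene behind the rice spotted leaf mutant spl7, fell in both genotypes. It read 1481.1 and 1562.0 at D0 and 294.5 to 344.7 under drought in IRAT109. In ZS97 it read 516.1 and 505.6 at D0, 221.6 and 226.5 at D1, 107.3 and 93.9 at D2, and 83.4 and 81.0 at D3. IRAT109 was thus down by D1 and level from there, whereas ZS97 went down further from D1 to D2, by -1.04 ± 0.06 (-0.96 without D2 replicate 2). The mean changes were -2.19 ± 0.05 and -1.91 ± 0.05, and IRAT109 read 1.54 ± 0.06 higher at D0.

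The probe sets assigned to HSFA2C and HSFA2D carry a doubt of identity, since their RefSeq entries also list names of acireductone dioxygenase genes, and which transcript they read was not settled. HSFA2C (probe set 2) read 165.7 and 167.1 at D0 and 48.9 to 77.2 under drought in IRAT109, and 575.4 and 555.4 and then 165.4 to 209.4 in ZS97, with mean changes of -1.23 and -1.55; its D3 change in IRAT109 (-1.14) was -0.97 without D3 replicate 2. Probe set 1 of HSFA2C was called at D1 and D2 of IRAT109 (-1.08 and -1.07). HSFA2D (probe set 2) read 127.4 and 99.3 at D0 and 23.4 to 39.8 under drought in IRAT109, and 112.9 and 136.5 and then 24.1 to 30.1 in ZS97, with mean changes of -1.51 and -1.70. Probe set 1 of HSFA2D contradicted this: it read 2402.1 to 3205.3 in IRAT109 and 2986.8 to 4005.1 in ZS97, with no call against D0.

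Factors without a call against D0 included HSFA1, whose tomato and Arabidopsis counterparts are master activators of the heat response; it read 672.1 to 892.9 over all 16 arrays. HSFA3 had changes of -0.92 to -0.11, HSFA4B of -0.53 to -0.25, HSFA5 of -0.13 to 0.10 and HSFA9 of -0.33 to 0.10. HSFA2B, HSFB4B (2 probe sets) and HSFC1A lay between 17.6 and 124.8.

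The drought changes differed between the genotypes for 15 of 64 members at 1 or more stages (5.53% of all probe sets), namely 7 small HSP, 2 large HSP and 6 factor probe sets. For the mean change over D1 to D3, 9 were called (3.07% of all): HSP16.9B, HSP16.0, HSP26.7 and HSP18.8 lay higher in IRAT109, and HSP18.0 (probe set 3), HSFC2A and the 3 probe sets of HSFB2C lay lower. At D1 the small HSPs gave 5 called interactions with a higher change in IRAT109 (1.26% of all) and 1 with a lower (1.59% of all), and the factors gave 0 and 5.

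**Figure D5:**
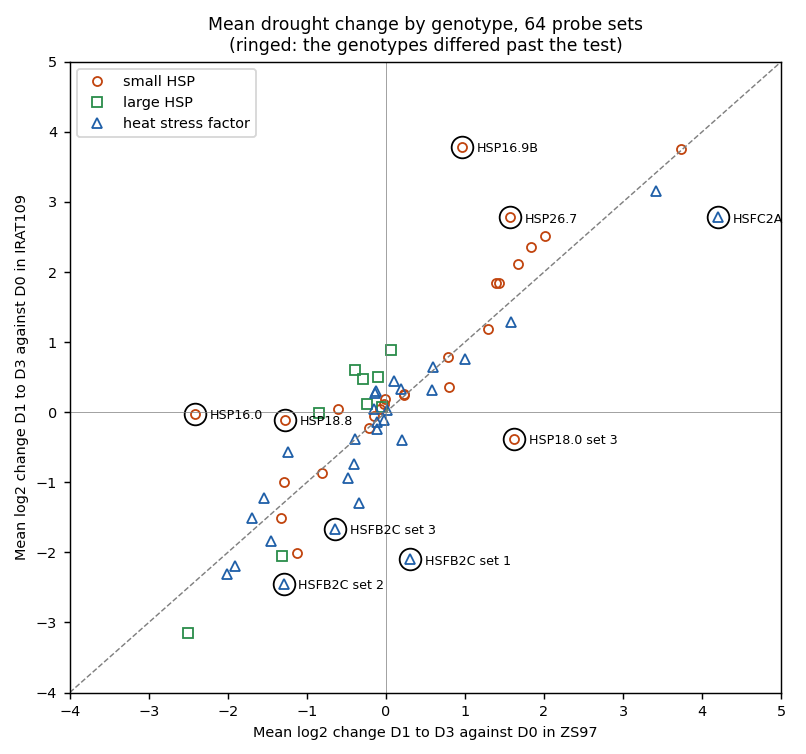
Mean log2 change over D1 to D3 against D0 in ZS97 (horizontal) and IRAT109 (vertical) for the 64 probe sets, with circles for small HSPs, squares for large HSPs and triangles for factors; the dashed line marks equal change and rings mark the 9 probe sets whose changes differed by the test. HSP16.9B, at 0.96 and 3.79, lies far above the line, and HSFB2C probe set 1, at 0.31 and -2.10, far below it.

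Steps between neighbouring stages were few: 4 members were called in IRAT109 (0.735% of all) and 5 in ZS97 (0.866% of all). Besides those of HSP26.7, HSP18.6, HSP23.2, HSFA6B and HSFA4D given above, HSP16.9B rose from D1 to D2 in IRAT109 by 1.03 ± 0.11, which was 0.99 without D2 replicate 2, and HSP18.6 (probe set 2) rose from D1 to D2 in ZS97 by 1.11 ± 0.11, which was 0.96 without D1 replicate 2.

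At a matched stage, 20 of 64 members differed between IRAT109 and ZS97 at 1 or more of D0 to D3 (9.61% of all probe sets), and 6 differed at all 4 stages (2.61% of all). These 6 were HSP16.9A, HSP16.9B, HSP26.2 and HSP18.0 (probe sets 1 and 3), all higher in IRAT109, and HSFA2C (probe set 2), higher in ZS97. At D0, before drought, 10 members were higher in IRAT109 (3.07% of all) and 2 in ZS97 (1.8% of all).

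Other genes of protein folding, 29 probe sets of chaperones and co-chaperones and 8 of heat and unfolded-protein regulators, are given for comparison. Of the chaperones, 0 rose and 7 fell in mean change in IRAT109 (2.97% and 4.07% of all probe sets), and 1 rose and 6 fell in ZS97 (3.32% and 3.54% of all). BIP1, the HSP70 of the endoplasmic reticulum, had a mean intensity in IRAT109 of 9418 ± 112 (SD, n = 2) at D0 and 2035 ± 22.3 at D3, and in ZS97 of 7067 ± 579 and 1897 ± 92.2. PDIL2-3, a protein disulfide isomerase-like protein, had mean changes of -3.13 and -2.93, DJB6, a J-domain protein, of -2.89 and -2.08, and CRT1, a calreticulin, of -1.61 and -1.54. For SGT1, a co-chaperone of HSP90, they were -1.92 and -1.79.

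CLPD1, a chloroplast Clp ATPase of the HSP100 type, was the chaperone upregulated in mean change, from 399 ± 3.25 at D0 to 2643 ± 19.2 at D3 in ZS97 (mean change 2.31 ± 0.09). In IRAT109 it was at 396 ± 53.2 at D0, 505 ± 37.6 at D1 and 1343 ± 28.6 at D3, so that it was called there at D3 but not in mean change, and the mean changes differed by -1.501 ± 0.13. CLPC3 was called at D3 of ZS97 alone (1.02 ± 0.12), where it was at 28.6 ± 9.9 at D0 and 73.4 ± 5.73 at D3. Of the regulators, only BZIP50, a factor of the unfolded protein response, was called in mean change, at -1.62 in IRAT109 and -1.94 in ZS97.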

How the data were processed

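Total RNA of flag leaf blades was hybridised to 16 Affymetrix Rice Genome Arrays (8 groups, 2 biological replicates each). The authors deposited one linear signal intensity per probe set and array; the labels name MAS5 and the study's methods name RMA for summarising the probes, so the method of the deposited intensity values was not settled. Arrays carry no counts, and their number, 2 a group, limits the precision. The values were used as deposited, with no further normalisation. Values were transformed as log2(intensity + 16), so changes of members near 16 are understated, and fitted with limma 3.58.1 (R 4.3.3) as 8 group means over all 16 arrays (8 residual and 4.28 prior degrees of freedom, median residual SD 0.0827). The p-values were adjusted by Benjamini-Hochberg over all 57381 probe sets, 123 control probe sets included. Genes were named from GEO's platform annotation and RefSeq (assembly ASM3414082v1), which was used for names and gene order only; 22436 probe sets have 1 symbol, and probe sets with several or none were not used. Probe sets whose names end in _s_at, _x_at or _a_at may match several transcripts.

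The members and lists were chosen with earlier results of these data known. Values per array are given within each class for the members with the largest called mean changes, interactions, steps and genotype differences at D0, and for probe sets of 1 gene that disagree; uncalled members are given by range. Of the other folding genes, only some of those called are named. From that list, names sharing only letters with BIP, and SPL7, which matched another gene, were dropped by name before their values were seen. The numbers of the probe sets of a gene follow the order of their identifiers. The script was tested on simulated data. Alternatives were the added constant, quantile normalisation, centring on the median, leaving out probe sets with a mean under 50, other thresholds of fold and p, rank products, an intensity trend, a replicate block, arrays of 1 genotype, 1 probe set per gene, and each array left out. Promoter motifs, planned for the members, were not analysed here.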

Additional observations from a re-analysis of the deposited data

Results flagged for a closer look

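The members below were picked out because the change in one genotype differed from that in the other by the test of the difference itself (limma, adjusted p under 0.05 over all probe sets and over 2-fold, 2 arrays a group). Each value is the log2 change against D0 in IRAT109 minus that in ZS97, at the stage where the called difference was largest.

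Among the small HSPs, the difference was 3.04 for HSP16.9B at D2, 2.99 for HSP26.7 at D2, 2.76 for HSP16.0 at D3, 1.34 for HSP18.8 at D2 and 1.07 for HSP23.2 at D1. It was -2.47 for HSP18.0 (probe set 3) at D3 and -1.12 for HSP22.3 at D2. Of the large HSPs, HSP81-3 differed by 1.03 (probe set 1) and 1.12 (probe set 5), both at D2.

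Among the factors, the difference was 1.05 for HSFB1 at D3, -1.38 for HSFB2B at D1 and -1.74 for HSFC2A at D2. The 3 probe sets of HSFB2C gave -3.08 at D2, -1.44 at D1 and -1.13 at D1. The step from D2 to D3 differed by -4.71 for HSP26.7, by -1.33 for HSP23.2 and by 1.19 for HSFB2C (probe set 1). Groups of 2 arrays are too small to test a single array as an outlier.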

How the results depend on the processing

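Of 8781 recomputed values of 311 called ones, 8450 kept their call, 331 dropped under a threshold and none reversed. Limits of 1.5-fold and no fold (311 kept each) could not lose a call, so they add nothing. Limits of fold and p, the trend, the block, 1 genotype, the dim filter and arrays left out of other groups leave the change unaltered. They do not test its direction. Of the 331, a limit of 4-fold lost 194 and a constant of 64 lost 73. Both lose calls by construction, since a larger constant shrinks changes. Dim members shrink most, but brighter ones near 2-fold were lost too, such as HSP17.9B between genotypes at D3 (0.97). Quantile normalisation lost 5, median centring 7 and rank products (100 permutations, no test of interactions) 8. Those 8 were the D3 changes of HSP17.4, HSFA2C probe set 2 and HSFB2B probe set 2 and the D2 change of HSFA2C probe set 1 in IRAT109, and the D3 changes of HSP16.9B, HSP17.7, HSP26.2 and HSFB2C probe set 2 in ZS97. With a constant of 64, mean-change calls were lost in ZS97 for HSP22.3 (-0.76), HSP23.2 (0.94), HSP81-1 probe set 2 (-0.94), HSFA2A (0.62), HSFB2A probe set 2 (-0.94) and HSFB2C probe set 2 (-0.95), in IRAT109 for HSFA2C (-0.87), HSFA2D (-0.92) and HSFB2B (-0.91), and as interactions for HSP26.7 (0.75) and HSFB2C probe sets 2 and 3 (-0.96 and -0.75). Scaling lost calls that lay near 2-fold: median centring those of HSP18.6 from D1 to D2 in IRAT109 (0.98), HSP81-3 interactions (0.96 to 0.98), and HSFA2A at D3 of IRAT109 and HSFB1 at D3 (both 0.998), and quantile normalisation those of HSP18.0 at D1 of ZS97 (0.98) and of HSFB2C probe set 3 (-0.99). Intensity limits the dim members: 12 of 64 had a mean under 50 and 2 under 16, and their changes have no firm size. These means are over all 16 arrays and miss members that were dim in only some groups. Among these, HSP16.9B had a mean of 13.5 at D0 of ZS97 and HSP26.7 of 15.65 at D0 of IRAT109. HSP16.0 read 27.6 to 51.1 in IRAT109. The size of their changes there is not firm either.

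Counts of members moved with the fold limit. No share of all probe sets is given at these other limits, so the counts show only how the limit acts and nothing particular to the members. With no fold limit, 28 rose and 26 fell at 1 or more stages in IRAT109 and 24 and 29 in ZS97; in mean change 28 rose and 24 fell in IRAT109 and 23 and 26 in ZS97; 38 differed in drought change, 54 between genotypes at a stage, and 23 (IRAT109) and 19 (ZS97) changed in a step. At 1.5-fold these last counts were 29, 37, 9 and 9, and at 4-fold 5, 5, 1 and 0. At 4-fold, 7 (IRAT109) and 4 (ZS97) fell at any stage, 7 fell in mean change in IRAT109, and 4 rose and 3 fell in ZS97. A constant of 64 left 2 steps in each genotype. With 1 probe set per gene (43 members), 9 fell at any stage and 8 in mean change in IRAT109.

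Class medians of the mean change moved with the make-up of the class. For small HSPs in IRAT109 the median was 0.27 and 0.10 with constants of 1 and 64, 0.203 by quantile normalisation, 0.201 by median centring, 0.57 without dim probe sets, 0.11 with 1 probe set per gene, and 0.15 without probe sets of shared sequence, an alternative chosen after seeing the data. In ZS97 it was 0.32, 0.145, 0.88, -0.013 and 0.107 with constants of 1 and 64, without dim probe sets, with 1 probe set per gene and without shared sequence. For large HSPs in IRAT109 it was 0.18 with a constant of 1, 0.29 without dim probe sets, 0.31 with 1 probe set per gene and 0.27 without shared sequence, and in ZS97 -0.17 with 1 probe set per gene. For factors it was -0.48 (IRAT109) and -0.25 (ZS97) without dim probe sets, and -0.069 in ZS97 without shared sequence.

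Leaving out each array in turn gave 13 to 14 risers and 15 to 16 fallers at any stage in IRAT109 and 15 to 16 of each in ZS97. In mean change it gave 12 to 13 and 13 to 15 in IRAT109 and 12 to 13 and 14 in ZS97. Drought changes differed for 14 to 18, levels for 19 to 21, and steps numbered 3 to 4 in IRAT109 and 4 to 6 in ZS97. The medians ran from 0.191 to 0.235 (small HSPs), 0.096 to 0.144 (large HSPs) and -0.299 to -0.184 (factors) in IRAT109, and from 0.213 to 0.238, -0.412 to -0.261 and -0.15 to -0.103 in ZS97. The replicate numbers only share a number: over 28 pairs of groups the deviations of replicate 1 correlated at -0.32 to 0.16, with a median of 0, and the replicate block changed no call, leaving 14 and 15 members up and 15 and 15 down in IRAT109 and ZS97.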
